A study of Mus musculus with 8 samples.

Results

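The miR-30 family was followed in mouse serum after whole-body X-irradiation. Its members were taken by name from the mouse miRNAs on the array, namely the 5p arms mmu-miR-30a-5p, mmu-miR-30b-5p, mmu-miR-30c-5p, mmu-miR-30d-5p and mmu-miR-30e-5p and the 3p arms mmu-miR-30a-3p and mmu-miR-30e-3p, which made 7 of 1881 mouse miRNAs. From irradiated mice (7 Gy of X-rays) and non-irradiated mice (0 Gy), 4 sera each were hybridised, every serum to 1 array of a 1-colour Agilent mouse miRNA microarray. All mice were male C57BL/6NJcl, aged 8 weeks at irradiation. The irradiated sera on the arrays were taken at 72 h, and the time of the 0 Gy sera is not given in the sources used here. The labels do not say whether each serum came from a separate mouse, so that p-values measure only the spread between these samples.

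A miRNA hairpin is cut into a duplex whose strands are named the 5p and the 3p arm. One arm usually stays in an Argonaute protein, where its seed, bases 2 to 8 from the 5′ end, pairs with target mRNAs. The 5p arms of the miR-30 family share a seed and are abundant in many tissues, kidney and heart among them. They are known for repressing genes of the epithelial-mesenchymal transition and of autophagy. In serum, miRNAs circulate bound to proteins or inside extracellular vesicles, so that their level there reflects release and clearance as well as expression. Serum has no cell type of its own, and fewer releasing cells cannot be told apart from less RNA released by each.

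The mature sequences of the members are shown because some members differ by so few bases. The reference table (RefSeq, GRCm38.p6) held 5 of the 7 members, and miR-30b-5p and miR-30d-5p are named only. Capitals mark the seed, and each sequence runs 5′ to 3′.
miR-30a-5p: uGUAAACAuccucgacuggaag
miR-30e-5p: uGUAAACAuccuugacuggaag
miR-30c-5p: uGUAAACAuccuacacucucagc
miR-30a-3p: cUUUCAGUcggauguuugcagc
miR-30e-3p: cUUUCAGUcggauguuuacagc

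The 3 printed 5p arms shared the seed GUAAACA and their first 12 bases. With positions counted from 1 at the 5′ end, miR-30e-5p differed from miR-30a-5p at a single position, C13U. miR-30c-5p differed from miR-30a-5p at 5 of 22 positions (C13A, G14C, G18C, G19U and A20C) and was 1 base longer. The 3p arms shared the seed UUUCAGU, and miR-30e-3p differed from miR-30a-3p only by G18A. In the table, 4 miRNAs carried the 5p seed. The fourth, miR-384-5p, which comes from a hairpin outside the family, was called detected on 0 of 8 arrays.

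The genes lie in 3 clusters. On chromosome 1, miR-30a-5p (chr1:23272274-23272295, plus strand) and miR-30a-3p (chr1:23272315-23272336) come from Mir30a, which lies 19361 bases from Mir30c-2. On chromosome 4, miR-30e-5p (chr4:120772660-120772681, minus strand) and miR-30e-3p (chr4:120772618-120772639) come from Mir30e, which lies 2983 bases from Mir30c-1. Mir30e and Mir30c-1 both lie within the span of Nfyc, the gene of a subunit of the transcription factor NF-Y (chr4:120757435-120831579). Mir30c-1 and Mir30c-2 give the same mature miR-30c-5p, at chr4:120769584-120769606 and chr1:23291714-23291736, so that its signal cannot be assigned to one cluster. Mir30b and Mir30d lie 3697 bases apart on chromosome 15.

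The arrays differed in labelling before any member was compared. Between 378 and 687 mouse miRNAs were called detected on the 7 Gy arrays and between 531 and 603 on the 0 Gy arrays. Labelling spike-ins are control RNAs added before the Cy3 labelling. Their log10 signals were 2.31, 3.35, 1.95 and 1.97 on 7 Gy replicates 1 to 4, against 3.68, 3.45, 2.73 and 3.37 on 0 Gy replicates 1 to 4. By the software's own limits these spike-ins were not acceptable on 7 Gy replicates 1, 3 and 4, which had the lowest signals, and were acceptable on the other arrays. On average this signal was 2.40 ± 0.660 for 7 Gy and 3.31 ± 0.407 for 0 Gy (SD, n = 4 each; two-sided exact permutation test, p = 0.0571, where 0.0286 is the smallest p of this design). All arrays shared 1 slide, on which the groups lay in different columns, and an effect of the column cannot be told apart from that of irradiation. Each slide row held replicates 1 and 2, or 3 and 4, of both groups.

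Among the members, miR-30a-5p, miR-30d-5p and miR-30e-5p were called detected on all 8 arrays. The other members were detected on all 4 arrays of the 0 Gy sera but not on all of the 7 Gy sera, where miR-30c-5p was detected on 3, miR-30a-3p on 2, and miR-30b-5p and miR-30e-3p on 1 each. The array on which every member was detected at 7 Gy was replicate 2, the 7 Gy array with its labelling spike-ins in range. The part of labelling in these detection calls was not tested.

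Signals below are intensities summed over the probes of a miRNA, scaled so that the 90th percentile of each array was the same, with values under a floor of 100 set to 100 before the log2 was taken. Signals of different miRNAs are not set against each other as amounts, since their probes differ. Of the 7 members, 5 passed the filter (called detected on at least 3 of 8 arrays and not at the floor on all 8), as did 208 miRNAs in all. Both 3p arms lay at the floor on all 8 arrays and were not tested in the reported fit.

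None of the 5 tested members passed the test (limma, Benjamini-Hochberg adjusted over the 208 miRNAs, adjusted p under 0.05), with 0 lower and 0 higher after 7 Gy. Over all tested miRNAs, 4 were lower and 4 were higher, which is 1.92% in each direction. At an unadjusted p under 0.05, 1 member was lower, beside 16 lower and 46 higher of the 208. All 5 tested members had a log2 fold change below 0, as had 84 of the 208 (40.4%), and their median was −0.58 against 0.17 over all tested miRNAs. With the signals scaled to the labelling spike-ins instead, 2 members lay below 0, and the medians were 0.29 for the members and 0.50 for all tested miRNAs.

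**Figure D1:**
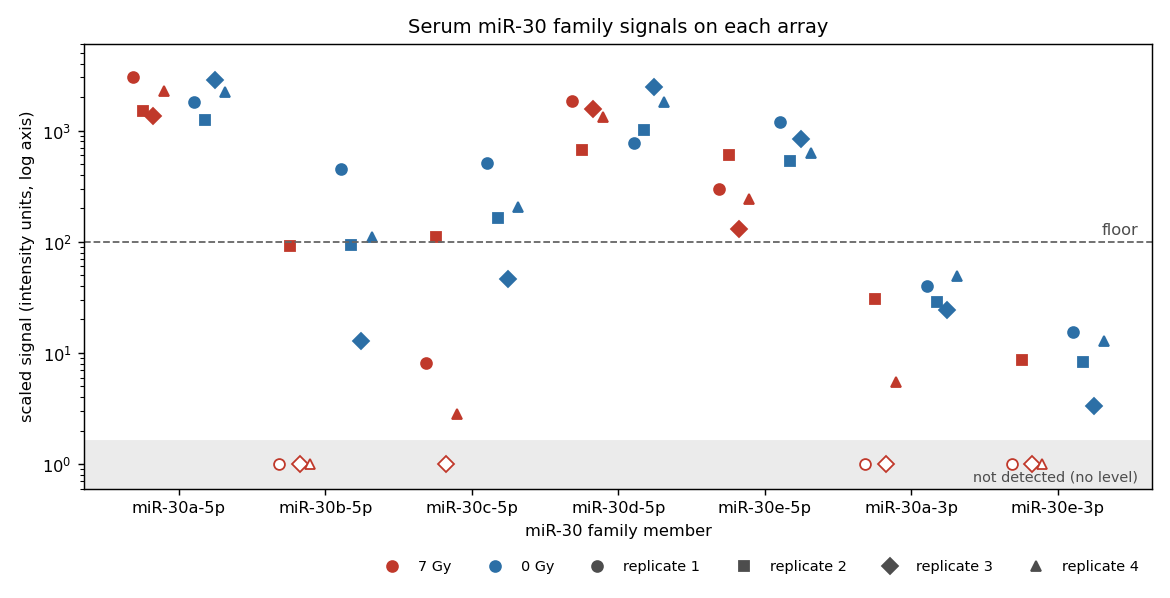
Scaled signal (intensity units, log axis) of each miR-30 member on each array, with 7 Gy (red) left of 0 Gy (blue), 1 symbol per replicate, the floor of 100 as a dashed line, and arrays where the member was not detected as open symbols in the grey band, which holds no level. The signals of miR-30a-5p and miR-30d-5p overlapped between the groups, whereas 7 Gy replicates 1, 3 and 4 lay below all 0 Gy arrays for miR-30e-5p.

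mmu-miR-30a-5p is the leading product of Mir30a. Its scaled signal was 3007, 1499, 1344 and 2252 in 7 Gy sera (replicates 1 to 4), against 1820.0, 1238, 2853 and 2212 in 0 Gy sera. The groups overlapped fully, with the lowest and the second highest array both at 0 Gy. The means were 2026 ± 765 at 7 Gy and 2031 ± 679 at 0 Gy (SD, n = 4 each), and the log2 fold change was −0.01 (SE 0.35, 95% interval −0.83 to 0.80, limma adjusted p = 0.991). The interval leaves room for a change in either direction, and leaving out 0 Gy replicate 3 gave 0.17. With labelling as a covariate it was −0.37, and with the labelling spike-ins as the scale it was 1.74. Within slide rows the log2 fold change was 0.50 in row 1 and −0.53 in row 2. Unscaled, miR-30a-5p gave 694, 3958, 290.2 and 2980.5 in irradiated sera (7 Gy), against 4667, 2742, 2681 and 2379.7 in non-irradiated sera (0 Gy).

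mmu-miR-30d-5p, which is encoded beside miR-30b, gave 1832, 661, 1565 and 1326 in 7 Gy sera, against 766, 1009, 2459 and 1803 in 0 Gy sera. The groups overlapped here as well. Its log2 fold change was −0.11 (SE 0.47, 95% interval −1.21 to 0.99, limma adjusted p = 0.881). The unscaled signals of miR-30d-5p were 423, 1746, 338 and 1754 in 7 Gy sera, against 1964, 2234, 2310.5 and 1939.7 in 0 Gy sera, so that every 7 Gy array lay below every 0 Gy array. Such a separation held for 1 of the 5 tested members and for 5.29% of the 208 miRNAs before scaling. It held for 0 of the 5 members and again for 5.29% after scaling. When arrays were scaled by the 75th percentile taken over only those miRNAs that all 8 arrays detected, miR-30d-5p passed the test at −0.83 (limma adjusted p = 0.0438). In that setting, 11 of 204 miRNAs were lower and 7 higher. The log2 fold change of miR-30d-5p was 0.32 in slide row 1 and −0.55 in slide row 2. The spike-ins moved it in both directions, to −1.09 as a covariate (SE 0.39, limma adjusted p = 0.232) and to 1.65 as the scale. Among the arrays in range, where 7 Gy replicate 2 stands alone for its group, it was −1.04.

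mmu-miR-30e-5p comes from the hairpin inside Nfyc and had the lowest unadjusted p of the family. Its scaled signal was 298, 599.9, 131 and 242 in 7 Gy sera, against 1184, 533, 834 and 632 in 0 Gy sera. Replicates 1, 3 and 4 at 7 Gy lay below every 0 Gy array, and replicate 2 at 7 Gy lay among the 0 Gy arrays. The means were 318 ± 201 at 7 Gy and 796 ± 288 at 0 Gy (SD, n = 4 each). The log2 fold change was −1.47 (SE 0.48, 95% interval −2.60 to −0.34), with an unadjusted p of 0.0180 and an adjusted p of 0.117 in limma, the 30th smallest of the 208. miR-30e-5p is on the study's list of decreasing miRNAs, which was chosen on these same samples, so that its direction here is not independent evidence.

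The call of miR-30e-5p turned on 1 array. Without 7 Gy replicate 2 the log2 fold change was −1.85 and passed the test (limma adjusted p = 0.0146), as it did with array weights (−1.48, adjusted p = 0.0143) and in slide row 2 alone (−2.03, adjusted p = 0.0458). Many other miRNAs passed in these settings too. Without 7 Gy replicate 2, 14 of 207 miRNAs were lower and 56 higher. With array weights these were 14 and 61 of 208, and in slide row 2 alone 10 and 18 of 162. In slide row 1, which holds 7 Gy replicate 2, the log2 fold change of miR-30e-5p was −0.91. With the slide row as a block its adjusted p was 0.0724. The 3 arrays with a low signal were those with dim labelling spike-ins. Among the arrays in range, where 7 Gy replicate 2 stands alone for its group and is assumed to vary like the 0 Gy arrays, the log2 fold change was −0.34. Once labelling, read from the spike-ins, entered the fit as a covariate, the value was −0.61 (SE 0.50, limma adjusted p = 0.753), and scaling to those spike-ins gave 0.29, against 0.50 for the median of all tested miRNAs.

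mmu-miR-30c-5p, the arm with a gene in 2 clusters, lay under the floor on most arrays of the irradiated sera. Its unscaled signal was 1.86, 293 and 3.74 on 7 Gy replicates 1, 2 and 4 and was not detected on replicate 3, against 1302, 364, 43.5 and 220 at 0 Gy. After scaling, only replicate 2 lay above the floor at 7 Gy, with 111. At 0 Gy the scaled signals of replicates 1, 2 and 4 were 508, 164 and 204, and replicate 3 lay at the floor. The 0 Gy array with the lowest signal was also the 0 Gy array with the lowest labelling spike-ins. The log2 fold change was −0.98 (SE 0.46, 95% interval −2.06 to 0.09, limma adjusted p = 0.208), with −1.45 in slide row 1 and −0.52 in slide row 2. Without 0 Gy replicate 1, the array with its highest signal, it was −0.54. With a floor of 10 it was −3.20, since the floor of 100 hides how far a dim member lay below it, and it did not pass the test there either (limma adjusted p of at least 0.1005 for every member).

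mmu-miR-30b-5p was low or undetected on the same arrays. It was detected at 7 Gy on replicate 2 alone, with an unscaled signal of 239.7, against 1161, 205, 12.1 and 119 at 0 Gy. All 4 arrays at 7 Gy lay at the floor after scaling. At 0 Gy, replicates 1 and 4 lay above it, with 453 and 111. The log2 fold change was −0.58 (SE 0.49, 95% interval −1.75 to 0.58, limma adjusted p = 0.466), and without 0 Gy replicate 1 it was −0.05. In slide row 1 it was −1.09, and in slide row 2 it did not pass the detection filter. With a floor of 10 it was −2.34, so that its size is set by the floor.

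**Figure D2:**
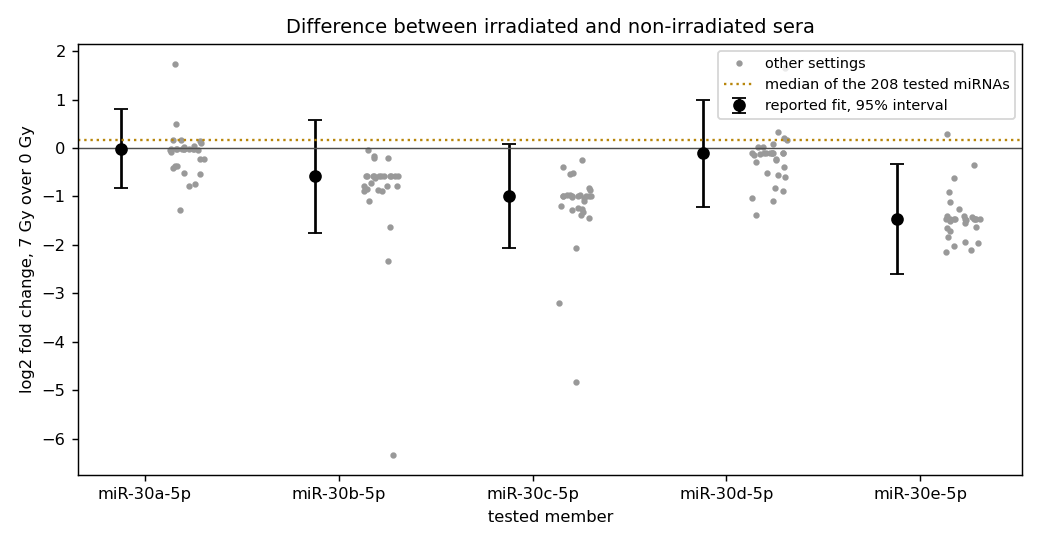
Log2 fold change, 7 Gy over 0 Gy, of the 5 tested miR-30 members, with the reported fit and its 95% interval in black and the other processing settings as grey dots; the dotted line is the median of the 208 tested miRNAs (0.17). The intervals of miR-30a-5p and miR-30d-5p centre near 0, and miR-30e-5p lies at −1.47 with other settings between −2.14 and 0.29.

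The 3p arms are the strands that are less often kept. mmu-miR-30a-3p had an unscaled signal of 81.2 and 7.21 on 7 Gy replicates 2 and 4 and was not detected on replicates 1 and 3, against 102, 63.3, 22.8 and 52.9 at 0 Gy. mmu-miR-30e-3p had 22.8 on 7 Gy replicate 2 and was not detected on the other 7 Gy arrays, against 39.6, 18.4, 3.13 and 13.7 at 0 Gy. For both arms, 7 Gy replicate 2 lay among the 0 Gy arrays. With a floor of 10, the log2 fold change was −1.37 for miR-30a-3p (SE 0.44, limma adjusted p = 0.103). For miR-30e-3p it was −0.24 (SE 0.20, limma adjusted p = 0.401). Most 7 Gy arrays lay at that floor, so that it sets the size of both values.

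The ratio of 2 members on the same array does not depend on the scaling between arrays. Of 13 pairs, 6 had both members detected on at least 3 arrays of each group and were tested, with p-values adjusted over these 6. None passed, with 0 also at an unadjusted p under 0.05, and 1 pair alone cannot pass after this adjustment, since the smallest exact p is 0.0286. The pair that differs by 1 base, miR-30a-5p over miR-30e-5p, had a signal ratio of 10.1, 2.50, 10.3 and 9.30 in 7 Gy sera, against 1.54, 2.32, 3.42 and 3.50 in 0 Gy sera. Replicates 1, 3 and 4 at 7 Gy lay above all 0 Gy arrays and close to each other, and replicate 2 at 7 Gy lay inside the 0 Gy range. Replicates 1, 3 and 4 were also the arrays with labelling spike-ins out of range. The part of labelling in the ratios was not tested. The log2 ratio averaged 2.81 ± 0.99 at 7 Gy and 1.35 ± 0.56 at 0 Gy (SD, n = 4 each). The difference of 1.45 had p = 0.0857 and an adjusted p of 0.240 (two-sided exact permutation test). Without 7 Gy replicate 2 it was 1.95, with the smallest p these arrays allow (two-sided exact permutation test, p = 0.0286, adjusted p = 0.08).

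miR-30d-5p over miR-30e-5p stood apart on the same arrays. Its ratio was 6.14, 1.10, 11.98 and 5.47 in 7 Gy sera, against 0.647, 1.89, 2.95 and 2.85 in 0 Gy sera. The difference of the mean log2 ratios was 1.36 (two-sided exact permutation test, p = 0.171, adjusted p = 0.240). It ranged between 0.87 without 0 Gy replicate 1, 0.90 without 7 Gy replicate 3 and 2.04 without 7 Gy replicate 2, the last again at the smallest p of 0.0286. miR-30a-5p over miR-30d-5p, in contrast, had ratios of 1.64, 2.27, 0.859 and 1.70 in 7 Gy sera, against 2.38, 1.23, 1.16 and 1.23 in 0 Gy sera. The difference was 0.10 on the log2 scale (two-sided exact permutation test, p = 0.914, adjusted p = 0.914), and the groups overlapped.

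The pairs with miR-30c-5p gave no measured ratio on most irradiated arrays. The software called miR-30c-5p detected on 7 Gy replicates 1 and 4, but only 0 and 1 of 15 spots of its probes were well above background on replicate 1, and 0 and 7 of 15 on replicate 4. With both members of a pair held at the floor or above on all 8 arrays, the difference of the mean log2 ratios was 0.97 for miR-30a-5p over miR-30c-5p, −0.87 for miR-30c-5p over miR-30d-5p and 0.48 for miR-30c-5p over miR-30e-5p. These values are set by the floor, and no size or direction is read from the 3 pairs. Of the 7 pairs not tested, each lacked detection on at least 2 of the 7 Gy arrays.

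**Figure D3:**
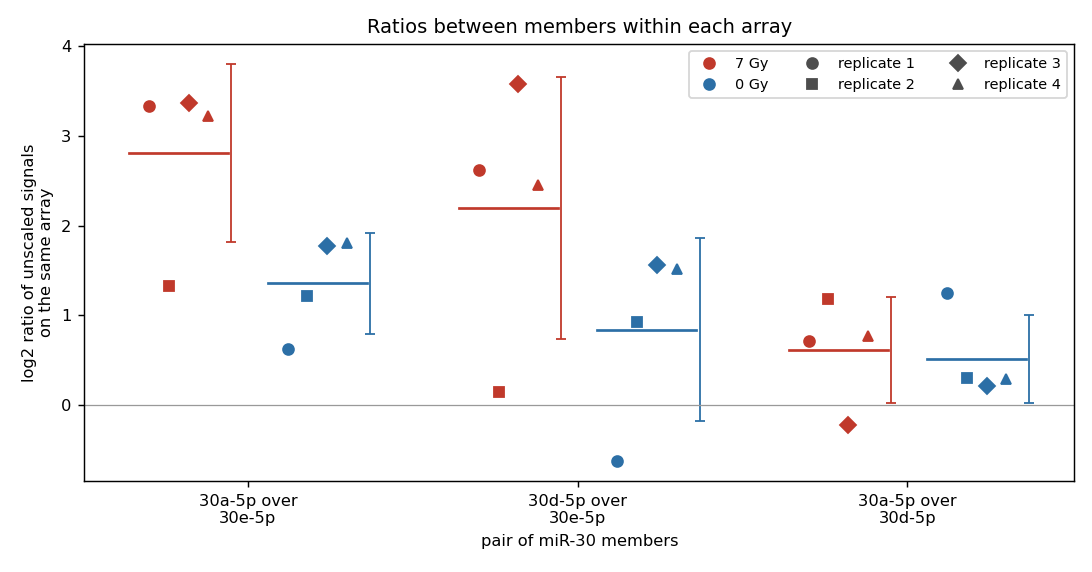
Log2 ratio of the unscaled signals of 2 miR-30 members on the same array, 7 Gy (red) left of 0 Gy (blue), with the mean (line), the SD (bar) and 1 symbol per replicate. For miR-30a-5p over miR-30e-5p, 3 of the 7 Gy arrays lie between 3.22 and 3.36 and replicate 2 lies at 1.32, inside the 0 Gy range of 0.62 to 1.81. These 3 arrays are those with labelling spike-ins out of range.

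Each member is read by several probes, which are assigned to the same molecule. Whether a probe also binds a member that differs by 1 base was not tested. miR-30a-5p has 3 probes with 10 spots each, and the other tested members have 2 probes with 15 spots each. The spots of a probe varied little: over the probes of miR-30a-5p, miR-30d-5p and miR-30e-5p on the 8 arrays, their coefficient of variation was 1.37% to 8.82%, with a median of 3.07%.

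The probes of one member nevertheless differed from each other by unlike factors on different arrays. For miR-30e-5p, the dimmer probe had 0.705, 0.332, 0.685 and 0.728 of the signal of the brighter probe on the 7 Gy arrays, against 0.271, 0.416, 0.477 and 0.531 on the 0 Gy arrays. The 3 arrays with labelling spike-ins out of range had the 3 highest shares. For miR-30a-5p the ratio of the probe with the lowest mean over the 8 arrays to the probe with the highest was 0.857, 0.382, 0.830 and 0.889 at 7 Gy, against 0.248, 0.626, 0.640 and 0.629 at 0 Gy, with the same 3 arrays on top. For miR-30d-5p the share was 0.950, 0.842, 0.986 and 0.956 at 7 Gy, against 0.799, 0.866, 0.963 and 0.915 at 0 Gy. Here the same 3 arrays were not all on top, since 0 Gy replicate 3 lay above 7 Gy replicates 1 and 4. These shares were looked at after the values had been seen and carry no test.

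**Figure D4:**
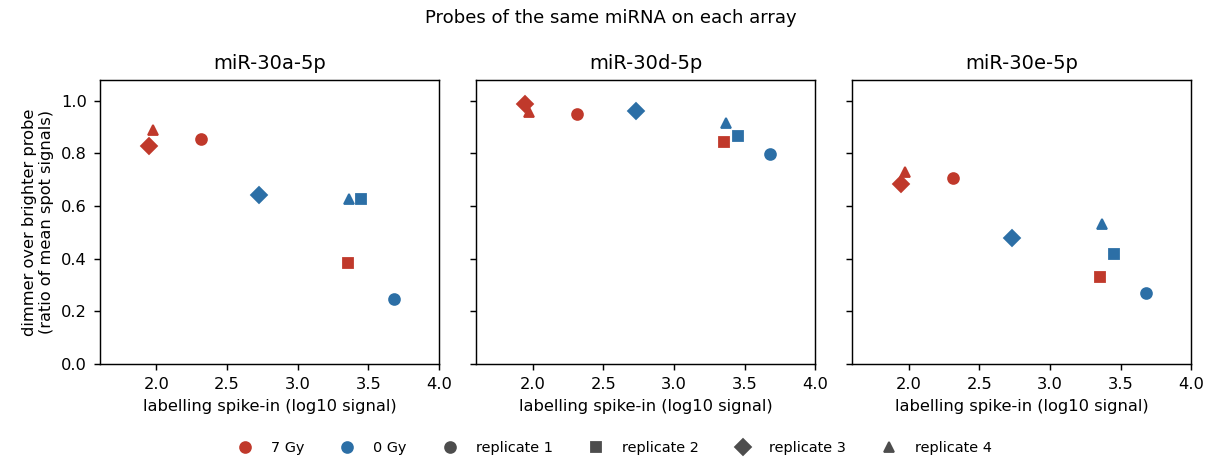
Ratio of the mean spot signal of the dimmer probe to that of the brighter probe of the same miRNA (lowest and highest mean over the 8 arrays), on each array, against the labelling spike-in signal (log10) of that array, with 7 Gy in red, 0 Gy in blue and 1 symbol per replicate. The arrays with spike-in signals of 2.31, 1.95 and 1.97 have ratios of 0.685 to 0.728 for miR-30e-5p, and the array with 3.68 has 0.271.

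The size of a difference varied with the probe. The log2 difference of miR-30e-5p was −1.45 in its brighter probe and −0.94 in its dimmer probe. Mean spot signals were used here, scaled with the array factors of the summed signals and held at the same floor. For miR-30c-5p the difference was −1.76 in the brighter and −0.84 in the dimmer probe. For miR-30b-5p it was −1.34 and −0.36, with most 7 Gy arrays at the floor. The 2 probes of miR-30d-5p gave 0.04 and 0.12, and the 3 probes of miR-30a-5p gave −0.02, 0.21 and 0.47. Mean spot signals and summed signals did not keep the same proportion on every array, so these values are read between probes only. The summed signals gave −1.47 for miR-30e-5p and −0.11 for miR-30d-5p, each outside the values of its 2 probes.

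The other products of the family's hairpins lay at the floor. None of the 5 further mature miRNAs on the array (miR-30b-3p, miR-30c-1-3p, miR-30c-2-3p, miR-30d-3p and miR-30f) was tested. miR-30f, whose hairpin is annotated at the coordinates of Mir30e on the opposite strand, was detected on 0 of 8 arrays. miR-30c-1-3p and miR-30c-2-3p, the partner arms of miR-30c-5p, were detected on all 8 arrays. The scaled signal of miR-30c-2-3p before the floor was 9.45, 7.01, 11.2 and 20.1 at 7 Gy, against 4.73, 5.26, 7.90 and 8.81 at 0 Gy. Unscaled it was 2.18, 18.5, 2.41 and 26.6 at 7 Gy, against 12.1, 11.6, 7.42 and 9.48 at 0 Gy, and no order is read from these values, which all lay under the floor.

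The 3 tested miRNAs outside the family whose log2 scaled signal was most like the mean of the tested members over the 8 arrays were miR-425-5p (Pearson r = 0.880), miR-130b-3p (0.783) and miR-210-3p (0.767). These values describe 8 arrays that share 2 groups and the same scaling. The log2 fold changes were −1.23 for miR-425-5p (limma adjusted p = 0.121), −1.35 for miR-130b-3p (adjusted p = 0.00700) and −0.67 for miR-210-3p (adjusted p = 0.117). Of these, miR-425-5p is on the study's list of decreasing miRNAs, chosen on these same samples. miR-130b-3p was at the floor on all 4 arrays of the 7 Gy sera, as were miR-425-5p and miR-210-3p on 3 of the 4, so that all 3 fold changes depend on the floor.

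miRNAs of cells that can leak into serum were also low on some of the arrays. The scaled signal of 5 erythroid miRNAs, summed over detected values only, was 7322 to 25820.5 in 7 Gy sera and 16485 to 82112 in 0 Gy sera. The highest erythroid sum at 7 Gy was on replicate 3. At 7 Gy, miR-451a and miR-486a-5p were detected on 4 arrays, and miR-144-3p, miR-15a-5p and miR-16-5p on 1 each. Their log2 fold changes were unlike, from −5.34 for miR-451a to −0.46 for miR-486a-5p and −0.005 for miR-144-3p. Of the 8 arrays, 3 lay at the floor for miR-451a, 5 for miR-144-3p and 0 for miR-486a-5p. The values of miR-451a and miR-144-3p therefore depend on the floor. The sum of 4 platelet and myeloid miRNAs was 6.87 to 2271 in 7 Gy sera, with the highest value on replicate 2, and 529 to 6013 in 0 Gy sera. The liver marker miR-122-5p was detected in 1 of the 7 Gy sera, at 806 on replicate 2, and in 4 of the 0 Gy sera, at 5.26 to 442. Its log2 fold change was 0.007, with 5 of the 8 arrays at the floor, so that an unchanged level is not read from it. The sum of 3 muscle miRNAs was 81.3 to 809 in 7 Gy sera, with the highest value on replicate 2, and 276 to 1188 in 0 Gy sera. Of these lists, 0 of the 12 tested miRNAs passed the test in either direction. The islet marker miR-375-3p went the other way, at 470, 457, 362 and 126 in 7 Gy sera against 129, 115, 130 and 130 in 0 Gy sera. Its log2 fold change was 1.32 (SE 0.42, limma adjusted p = 0.117), and it did not pass either. It is on the study's list of increasing miRNAs, chosen on these same samples, and the paper also reports its rise in serum by quantitative PCR. The part of these miRNAs in the values of the miR-30 members was not tested.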

How the data were processed

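Serum RNA (30 ng per array) had been labelled with Cy3 by the authors and hybridised to 8 arrays of 1 slide. The deposited intensity values came from Agilent Feature Extraction (11.5 in the submitters' processing notes), in which the authors had background subtracted and probe signals summed per miRNA, with 0.1 for a miRNA not called detected and no normalization between arrays. The deposited detection calls, spot signals and spike-in values were also read. Precision is limited by the number of arrays.

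The 90th percentile over 1881 mouse miRNAs was set equal on all arrays (at its geometric mean), a floor of 100 was applied, and log2 was taken. This follows the percentile shift and lower cut-off of the methods, which do not state if low values were replaced or removed. At least 3 arrays detected 633 miRNAs, of which 425 never rose above the floor and 208 were tested with limma 3.58.1 (R 4.3.3), without covariates. For ratios of members, arrays were permuted exactly (two-sided). The code was tested on simulated data. All 7 members are named, together with the other miRNAs of their hairpins or seed and the 3 most alike miRNAs. The members and lists were chosen with earlier results of these data known. Alternatives covered scaling, floor, background (normexp, offset 50), filter, variance prior, weights, the methods' t-test, blocks, the labelling covariate and left-out arrays. Plots used matplotlib 3.10.9 (Python 3.11.15).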

Additional observations from a re-analysis of the deposited data

Results flagged for a closer look

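In 5 of 19 sets of 4 values, 1 array stood far from the other arrays of its group, and chance alone gives this in about 1 of 20 sets of independent, measured values. That rate does not apply to sets with values at the floor or to sets that share arrays and members, as these do. The log2 scaled signal of miR-30c-5p at 7 Gy was 6.80 on replicate 2, with the other 3 arrays set to the floor, so that any value above it stands apart by construction. That of miR-30b-5p at 0 Gy was 8.82 on replicate 1, the 0 Gy array with the highest labelling spike-in signal, with 2 of the other arrays at the floor. The log2 ratio of miR-30a-5p over miR-30e-5p was 1.32 on 7 Gy replicate 2, far below the other 7 Gy arrays. The log2 ratio of miR-30a-5p over miR-30d-5p was 1.25 on 0 Gy replicate 1, far above the other 0 Gy arrays. The log2 ratio of miR-30c-5p over miR-30e-5p was −4.17 on 0 Gy replicate 3, the 0 Gy array with the lowest labelling spike-in signal. The part of labelling in these values was not tested.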

How the results depend on the processing

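The number of members past the threshold was 0 in the reported fit and 1 in 5 alternatives. It was 1 with scaling by the 75th percentile over only those miRNAs that all arrays detected (miR-30d-5p), and 1 (miR-30e-5p) with array weights, the methods' t-test (unadjusted p = 0.0298, 0 after adjustment), slide row 2 alone, and without 7 Gy replicate 2. By the methods' t-test with its fold threshold of 1.5, 14 of the 208 miRNAs were lower and 34 higher. After adjustment these were 1 and 1. Leaving out 1 array at a time gave 0 to 1 members.

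The median log2 fold change of the members (−0.58) was −1.29 with no scaling, 0.29 with scaling to the labelling spike-ins, −1.47 with a floor of 10 and with no floor, and −1.62 with normexp background correction. It was nearer 0 over the 3 members detected on all arrays (−0.11) and with array weights (−0.20). It was −0.77 to −0.39 with 1 array left out. The median of all tested miRNAs was 0.17 in the reported fit, 0.50 with labelling spike-in scaling and −0.09 with no scaling. Relative to it, miR-30e-5p was −1.64, −0.21 and −2.05 in these 3 settings, and miR-30a-5p was −0.19, 1.24 and −1.18.

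The sign changed for miR-30a-5p with labelling spike-in scaling (1.74), spot signals (0.013), array weights (0.15) and slide row 1 alone (0.50), for miR-30d-5p with labelling spike-in scaling (1.65), quantile normalization (0.079), array weights (0.015) and slide row 1 alone (0.32), and for miR-30e-5p with labelling spike-in scaling (0.29). With 1 array left out, the log2 fold change was −0.23 to 0.17 for miR-30a-5p, −0.77 to −0.05 for miR-30b-5p, −1.33 to −0.54 for miR-30c-5p, −0.39 to 0.20 for miR-30d-5p and −1.85 to −1.11 for miR-30e-5p. None of these changes of sign passed the test, and the cause was not tested. The ratio of miR-30c-5p over miR-30e-5p changed sign with the floor on all arrays (0.48), so no direction is read from it. With 1 array left out, the difference in log2 ratio was −0.094 to 0.37 for miR-30a-5p over miR-30d-5p, 1.21 to 1.95 for miR-30a-5p over miR-30e-5p and 0.87 to 2.04 for miR-30d-5p over miR-30e-5p. The number of ratios past the threshold was 0 throughout, which says little, since the exact tests with fewer arrays or with pairs could hardly or not reach it.

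Same-numbered sera did not deviate together in every pair (r of −0.34, 0.43, 0.55 and 0.42 for replicates 1 to 4), and 1 of 4 numbers correlated best with itself, so the numbers were not taken as pairs. With the replicate block, 0 members passed and the median stayed −0.58. There and with no scaling, 0 of all tested miRNAs were lower and 0 higher, against 4 and 4 in the reported fit. The 75th percentile of all mouse miRNAs was not run, since it equals the value of a miRNA not detected on 2 arrays. The number of arrays and their signal over background limit these results, and a member under the floor has no order there.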
